A study of Mus musculus with 24 samples.

Results

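The balance of RNA between chromatin and nucleoplasm was compared between 2 states of E14 cells, an established line of mouse embryonic stem cells. The comparison used 12 of the 24 libraries of the series, 3 each of chromatin and of nucleoplasm RNA in naive cells (nESC) and in epiblast-like cells (EpiLC). Naive cells were grown without serum in N2B27 with the MEK inhibitor PD0325901, the GSK3 inhibitor CHIR99021 and the cytokine LIF. Epiblast-like cells were derived from them in N2B27 with 20 ng/ml activin A and 12 ng/ml bFGF on gelatin and were collected on day 3. Both states come from 1 cell line, and nuclei of both were isolated through a sucrose layer. The labels do not say whether the replicates were separate cultures, so p-values measure the spread between these libraries, which may be technical. In bulk samples, fewer cells of a type and less RNA per cell cannot be told apart.

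Each value is FPKM, sequenced fragments per gene scaled to exonic length and to library size. For each gene, the mean chromatin level minus the mean nucleoplasm level was taken in each state on the log2(FPKM + 0.5) scale, with every library centred on its median. The interaction is this difference in EpiLC minus this difference in nESC. A positive value means a higher chromatin-to-nucleoplasm ratio in EpiLC, and a negative value means a lower one. The test covered the 11704 of 29759 genes whose mean reached 1 FPKM in the table of each state. It was made with limma, a linear model that shares the estimate of the spread across genes. A call needed an interaction of at least 1 in size, a 2-fold change of the ratio, and an adjusted p (Benjamini-Hochberg) under 0.05.

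Chromatin RNA holds nascent transcripts, introns in the course of splicing and noncoding RNAs that stay at their site of synthesis. Nucleoplasm RNA has been released from the template and holds finished messages on their way to the nuclear pore. Messages with slowly removed introns, sometimes called detained introns, are kept in the nucleus until splicing is completed. The ratio of the 2 fractions thus depends on how much of a gene's RNA is still attached and on how much released RNA has not yet been exported or degraded.

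The labels were checked first. The summed FPKM of 32 naive pluripotency genes was 10470 to 10726 in the total RNA of nESC and 2637 to 2686 in that of EpiLC, and 38 formative epiblast genes summed to 1339 to 1450 and 2646 to 2728. Markers of other cell types also differed in level between the states. In total RNA 16 primitive endoderm markers summed to 1242 to 1354 FPKM in nESC, where 3 reached a mean of 1 FPKM, and to 342 to 349.8 in EpiLC, where 5 did. For 13 mesoderm and neural markers the sums were 57.3 to 60.8 and 27.3 to 28.8 FPKM, for 15 2-cell-like markers 201 to 215 and 99.1 to 102, for 14 fibroblast and feeder markers 371 to 411 and 114 to 124 and for 11 trophectoderm markers 14.1 to 14.6 and 8.41 to 8.99. Single genes held much of some sums. Apoe, counted as primitive endoderm, had a mean of 1248 FPKM in nESC total RNA and 285 in EpiLC total RNA. Eif1a made a similar contribution to the 2-cell-like sums, with means of 192 and 95.0 FPKM. Vim, counted as fibroblast, had 277 and 52.7 FPKM. The sums thus do not show how many cells of a type were present. Of the 2-cell-like markers 9 reached 1 FPKM in nESC chromatin and 2 in EpiLC chromatin. Their part in the results was not tested. Noncoding RNAs known to stay near chromatin did so in both states. Kcnq1ot1, the antisense RNA that silences its imprinted domain in cis, had 12.2, 11.8 and 15.3 FPKM in nESC chromatin and 0.406, 0.443 and 0.455 in nESC nucleoplasm. In EpiLC it had 15.9, 10.9 and 7.54 FPKM in chromatin and 0.682, 0.804 and 0.845 in nucleoplasm.

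A chromatin library stood apart. EpiLC chromatin replicate 3 correlated with the EpiLC nucleoplasm libraries at r = 0.887 to 0.891 across genes, against 0.829 to 0.851 for the other 2 EpiLC chromatin libraries, and with those libraries at 0.953 and 0.968. The ribosomal protein genes summed to 84583 FPKM in it and to 42824 and 43787 in the others. Within nESC chromatin the correlations were 0.966 to 0.982, and within each nucleoplasm group 0.992 to 0.995. Steps between low values put 30.6 to 48.0 fragments behind 1 FPKM of a 2 kb transcript in chromatin and 68.3 to 93.1 in nucleoplasm, so chromatin values are the less precise. EpiLC nucleoplasm replicate 3 had 86559 FPKM of mitochondrial genome messages, against 44323 and 42797 in the other 2 EpiLC nucleoplasm libraries.

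The chromatin-to-nucleoplasm ratio differed between the states for 909 of 11704 genes, 7.77% of those tested. It was higher in EpiLC for 464 genes (3.96%) and lower for 445 (3.8%). At an adjusted p under 0.05 of any size there were 1249 genes with a higher ratio (10.7%) and 2064 with a lower one (17.6%). The median interaction of all genes was -0.07, and the quartiles were -0.44 and 0.32. The 9 pairwise differences of one state lay outside the range of the 9 of the other for 3541 genes (30.3%) and for 844 of the 909 called. With each library scaled to one sum in place of centring, 852 genes were called, and 64.1% of them were higher in EpiLC in place of the 464 of 909. Without EpiLC chromatin replicate 3 there were 825 calls, 431 higher and 394 lower, and 703 of the 909 kept their call and direction.

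**Figure D1:**
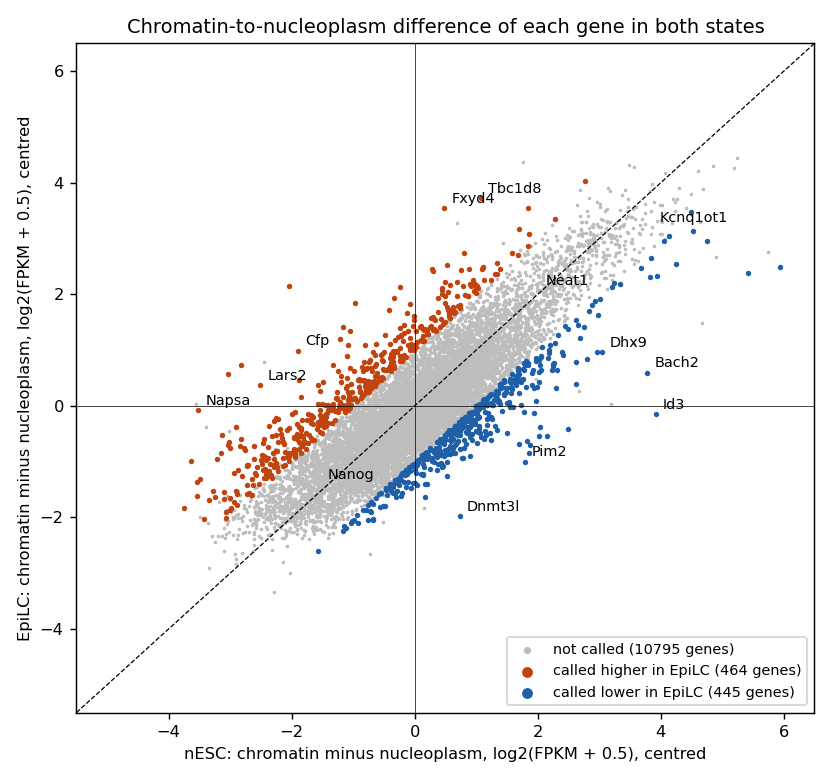
Chromatin minus nucleoplasm of each gene in nESC (horizontal) and in EpiLC (vertical), as differences of centred log2(FPKM + 0.5). Each point is 1 of 11704 genes, the dashed line marks equal differences, and the 464 genes called higher and 445 called lower in EpiLC lie above and below it.

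A switch from one fraction to the other by at least 2-fold on each side was rare among called genes. Since every library is centred, chromatin-rich and nucleoplasm-rich are relative to the median gene and do not give amounts of RNA. Reversals by less on either side were not counted. Only 6 of the 909 genes went from at least 2-fold higher in one fraction to at least 2-fold higher in the other. Of the 464 genes with a higher ratio, 179 went from at least 2-fold nucleoplasm-rich in nESC to within 2-fold in EpiLC. Another 110 went from within 2-fold to at least 2-fold chromatin-rich, and 96 stayed within 2-fold in both states. Of the 445 with a lower ratio, 161 went from at least 2-fold chromatin-rich to within 2-fold, 93 from within 2-fold to at least 2-fold nucleoplasm-rich, and 153 stayed within 2-fold. The spread of the log2 ratio over genes was similar in both states, with an SD of 1.16 in nESC and 1.08 in EpiLC.

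Among the genes with a higher ratio in EpiLC, the largest interaction under the naming rule was that of Napsa (chr7:44572380-44586862, GRCm38), which encodes the aspartic protease napsin A. Napsa had 2.03, 1.74 and 1.75 FPKM in nESC chromatin against 26.5, 27.0 and 25.5 in nESC nucleoplasm. In EpiLC it had 0.808, 1.82 and 2.26 FPKM in chromatin and 2.07, 1.70 and 1.37 in nucleoplasm. Only the nESC nucleoplasm libraries were high, and the chromatin libraries of the states overlapped. The interaction was 3.44 (SE 0.33, adjusted p = 0.000121).

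Cfp (chrX:20925454-20931555) encodes properdin, a positive regulator of complement. It had 5.53, 5.33 and 5.28 FPKM in nESC chromatin and 20.4, 22.7 and 21.3 in nESC nucleoplasm. In EpiLC the order of the fractions was the opposite, with 2.46, 3.78 and 3.10 FPKM in chromatin and 1.34, 1.02 and 1.71 in nucleoplasm, and no library of one fraction reached the other. The interaction was 2.89 (SE 0.22, adjusted p = 3.02e-05).

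Lars2 (chr9:123366927-123462666), the mitochondrial leucyl-tRNA synthetase, had 106, 127 and 106 FPKM in nESC nucleoplasm and 20.9, 22.8 and 14.9 in nESC chromatin. In EpiLC it had 17.5, 18.5 and 18.6 FPKM in chromatin and 13.3, 14.4 and 15.3 in nucleoplasm. The interaction was 2.88 (SE 0.20, adjusted p = 2.23e-05). Its other fractions did not share this pattern, since its mean FPKM was 7.23 in cytoplasm and 8.09 in total RNA of nESC and 43.0 and 16.3 in those of EpiLC. The nESC nucleoplasm was thus the only one of the 8 groups with a mean over 100.

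In further genes the nucleoplasm level was lower in EpiLC by more than the chromatin level. S100a1 and S100a13, neighbouring genes for small calcium-binding proteins, had interactions of 2.65 and 2.61. S100a13 had 70.9, 68.6 and 68.2 FPKM in nESC nucleoplasm and 1.04, 1.23 and 1.34 in EpiLC nucleoplasm, and in chromatin 8.21, 8.78 and 5.62 against 0.779, 0.513 and 0.679. Dkk3, a secreted protein related to Wnt antagonists, had an interaction of 2.38, with 18.4, 18.9 and 18.0 FPKM in nESC nucleoplasm and 2.39, 2.99 and 1.88 in EpiLC nucleoplasm. Its chromatin level was 1.69 to 2.07 FPKM in nESC and 0.96 to 1.67 in EpiLC. Tbc1d8, which carries a domain of Rab GTPase-activating proteins, was chromatin-rich in both states. It had 32.6, 23.8 and 23.9 FPKM in nESC chromatin and 29.0, 29.6 and 20.0 in EpiLC chromatin. Its nucleoplasm level was 11.2, 11.9 and 14 FPKM in nESC and 1.88, 1.3 and 1.49 in EpiLC, for an interaction of 2.64 (SE 0.24, adjusted p = 9.8e-05).

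Other genes had a higher mean chromatin level in EpiLC as well. Fxyd4, a small regulator of the sodium pump, had 2.91, 4.89 and 2.55 FPKM in nESC chromatin and 11.5, 11.5 and 4.35 in EpiLC chromatin, which overlap. Its nucleoplasm level was 1.65 to 2.69 in nESC and 0.163 to 0.56 in EpiLC (interaction 3.07, SE 0.48, adjusted p = 0.00108). The EpiLC nucleoplasm values lie near or below the 0.5 added to each FPKM, so the size of the interaction depends on it. In EpiLC its mean was 9.14 FPKM in chromatin, 0.0148 in cytoplasm and 1.43 in total RNA. It thus passed the filter on the EpiLC mean through its chromatin level. Dpp6, an auxiliary subunit of potassium channels, had 5.48 to 7.01 and 9.19 to 17.1 FPKM in the chromatin of nESC and EpiLC and 7.24 to 7.81 and 2.33 to 2.60 in the nucleoplasm (interaction 2.38). Tbc1d8 and Kdelr3 overlap Rpl31 and Ddx17 on the opposite strand, each of which had the higher mean FPKM over the 12 libraries. The use of strand in counting is not given in the sources used here, so reads of such pairs could be shared.

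The lowest interaction under the naming rule was that of Id3 (chr4:136143497-136145755), an inhibitor of basic helix-loop-helix factors and a textbook target of BMP signalling. Id3 had 31.2, 39.3 and 20.3 FPKM in nESC chromatin and 1.52, 1.63 and 1.28 in nESC nucleoplasm. In EpiLC it had 8.56, 10.9 and 13.2 FPKM in chromatin and 12.0, 12.3 and 12.5 in nucleoplasm. The fractions moved in opposite directions, with no overlap between the states in either. The interaction was -4.07 (SE 0.30, adjusted p = 3.02e-05). Cytoplasm and total RNA, which did not enter the fit, went the way of the nucleoplasm: the mean was 3.54 ± 0.24 FPKM (SD, n = 3) in nESC cytoplasm and 35.5 ± 6.2 in EpiLC cytoplasm, and 6.16 ± 1.6 and 36.1 ± 3.6 in total RNA.

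Bach2 (chr4:32238804-32586108), a transcriptional repressor best known from B cells, shared this arrangement at a lower level. It had 28.3, 24.8 and 19.8 FPKM in nESC chromatin and 5.44, 5.60 and 9.37 in EpiLC chromatin, and 0.776, 2.21 and 1.17 against 2.94, 4.79 and 5.64 in nucleoplasm (interaction -3.18, SE 0.42, adjusted p = 0.000428). Ttn, the giant muscle protein titin, had 19.5, 17.9 and 24.1 FPKM in nESC chromatin and 3.18, 1.95 and 1.49 in EpiLC chromatin. Its nucleoplasm level was 2.68 to 3.08 and 1.46 to 1.61, and the interaction was -2.23. Zscan4c, of the cluster that marks 2-cell-like cells, had 11.1, 13.9 and 3.77 FPKM in nESC chromatin and 1.15 to 2.17 in EpiLC chromatin, with an interaction of -2.68. Its near-identical copies make its level uncertain. For these genes the chromatin of nESC was the highest of the 4 groups.

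For other genes both fractions were higher in EpiLC, the nucleoplasm by more. Pim2 (chrX:7878262-7883432), a survival kinase, had 9.77, 9.95 and 8.96 FPKM in nESC chromatin and 2.61, 2.36 and 2.27 in nESC nucleoplasm. In EpiLC it had 33.4, 33 and 25.8 FPKM in chromatin and 67.8, 67.5 and 55.2 in nucleoplasm. The groups did not overlap and the order of the fractions was reversed, with an interaction of -2.79 (SE 0.17, adjusted p = 1.3e-05). Car14, a membrane carbonic anhydrase, had 2.36 to 4.68 FPKM in nESC chromatin, 0.373 to 0.496 in nESC nucleoplasm, 13 to 31.6 in EpiLC chromatin and 24.8 to 31.8 in EpiLC nucleoplasm (interaction -2.57). Its mean in nESC was 0.408 FPKM in cytoplasm and 0.48 in total RNA, so it passed the filter on the nESC mean only through chromatin. That filter favours a high nESC ratio for such a gene. Its nESC nucleoplasm values lie below the 0.5 added to each FPKM, so the size of the interaction depends on it. Timm21, a subunit of the mitochondrial inner membrane translocase, had an interaction of -2.69. Car14 and Timm21 overlap Aph1a and Fbxo15 on the opposite strand, each of which had the higher mean FPKM.

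Dhx9 (chr1:153455758-153487660), an RNA helicase, was the most abundant of the 12 named genes with the lowest interactions. It had 297, 295 and 247 FPKM in nESC chromatin and 268, 240 and 171 in EpiLC chromatin, which overlap. Its nucleoplasm level was 32.8, 30.8 and 37.0 FPKM in nESC and 120, 125 and 107 in EpiLC, which do not (interaction -2.09, SE 0.21, adjusted p = 0.000149). Ppp1r10, a nuclear targeting subunit of protein phosphatase 1, had 14.7 to 15.6 and 34 to 44.1 FPKM in the nucleoplasm of nESC and EpiLC and an interaction of -2. Rbm14, a paraspeckle protein, had 145, 132 and 106 FPKM in nESC chromatin and 40.3, 50.4 and 31.0 in EpiLC chromatin at a nucleoplasm level of 25.1 to 34.6, for an interaction of -1.98. Fmnl2, a formin that elongates actin filaments, had an interaction of -2, with 2 to 2.44 FPKM in nESC nucleoplasm and 13.2 to 16.6 in EpiLC nucleoplasm.

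**Figure D2:**
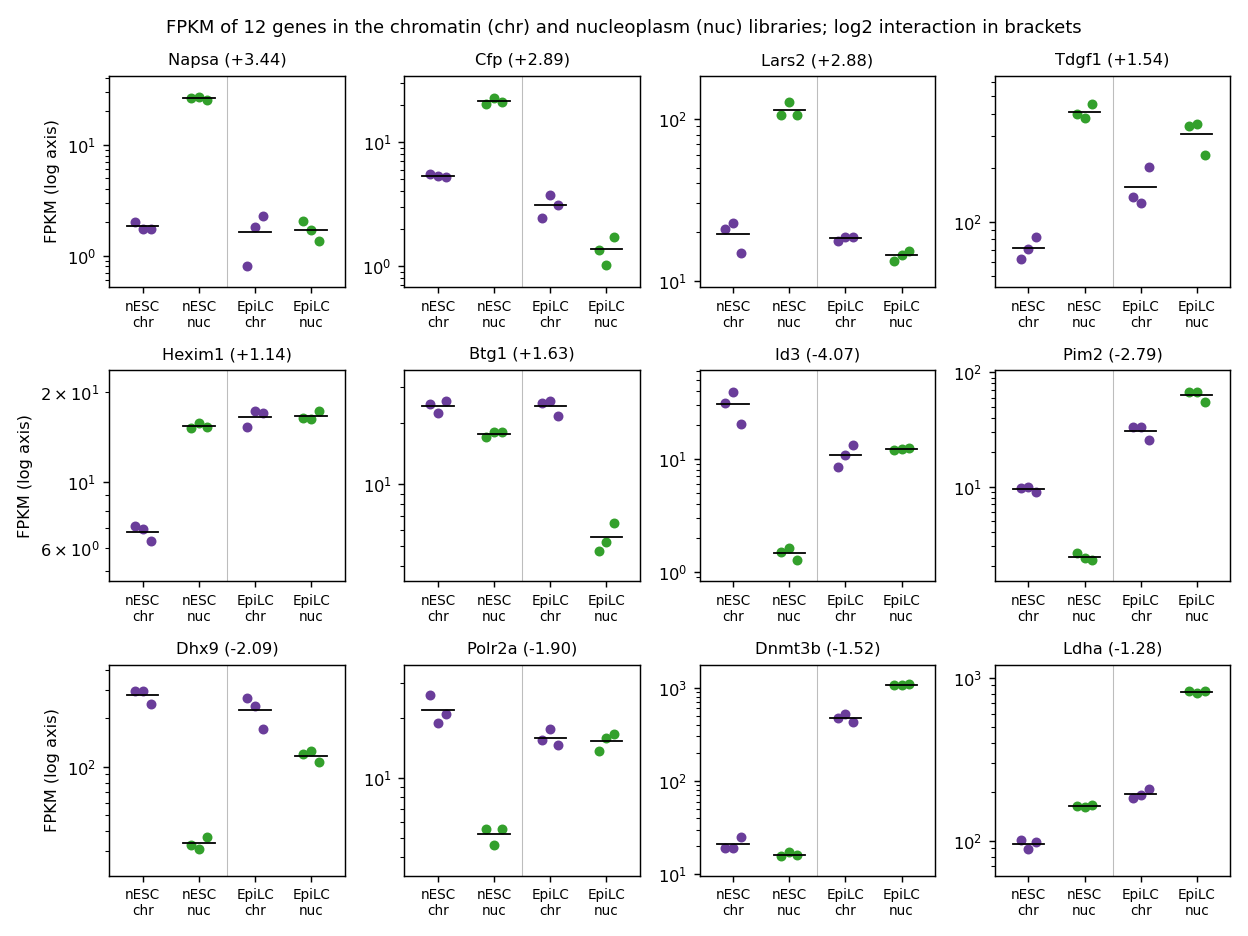
FPKM (log axis) of 12 genes in each of the 12 libraries, with chromatin (chr) in purple, nucleoplasm (nuc) in green and bars at group means; the log2 interaction is in brackets. Napsa is high only in nESC nucleoplasm (25.5 to 27.0), while Id3 is lowest in nESC nucleoplasm (1.28 to 1.63).

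The state difference was larger in nucleoplasm than in chromatin for most called genes, as it was for most genes tested. Among the 464 genes with a higher ratio the state difference was larger in nucleoplasm for 297 (64%), and among the 445 with a lower ratio for 314 (70.6%). Over all tested genes this was so for 6729 (57.5%). For the genes with a higher ratio the median state difference, EpiLC minus nESC, was -1 in nucleoplasm and 0.37 in chromatin. For those with a lower ratio it was 0.92 and -0.29. The calls were made from these same differences, so the directions of these medians and of the counts that follow are largely set by the selection. A fold of at least 2 between the states was reached by the nucleoplasm mean of 231 of the 464 genes in the downward direction and of 193 of the 445 in the upward direction. The tables of the states were normalized separately, so state differences within a fraction are given as values with no test.

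The cytoplasm libraries, which entered the filter on the mean but not the fit, sided with the nucleoplasm. Some genes had very low nESC cytoplasm values. Hsp90aa1 had a mean of 1.90 FPKM there and 416 in EpiLC cytoplasm, at 4281 and 2616 in total RNA of nESC and EpiLC. Dis3 had 1.02 and 17.7 in cytoplasm and 26.4 and 40.3 in total RNA. The cause was not tested. The cytoplasm level was lower in EpiLC for 361 of the 464 genes with a higher ratio (77.8%) and higher in EpiLC for 368 of the 445 with a lower ratio (82.7%). Over all tested genes 46% were lower and 54% higher. The median cytoplasm difference was -0.78 and 0.61 for the called sets, against -0.22 and 0.28 in total RNA. When the genes were split into 5 equal bins by the cytoplasm difference, 11.9% of the lowest bin were called higher and 0.854% lower, and of the highest bin 1.92% and 9.57%. Across genes, Spearman's rho of the interaction was -0.33 with the cytoplasm difference and -0.11 with that of total RNA. Genes are not independent replicates.

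**Figure D3:**
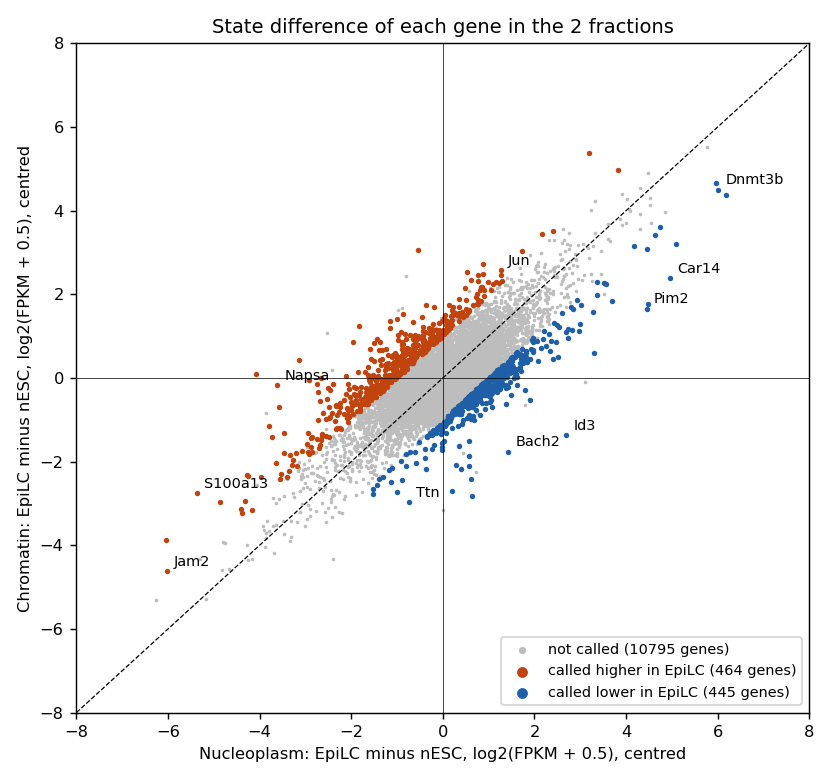
State difference (EpiLC minus nESC, centred log2(FPKM + 0.5)) of each of 11704 genes in nucleoplasm (horizontal) and chromatin (vertical). Genes called higher lie above the dashed line of equal differences, mostly left of zero, and genes called lower lie below it, mostly right of zero. The calls were made from these same differences, so these positions are largely set by the selection.

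The called genes differed in architecture. The median exonic length was 2734 bp for genes with a higher ratio, 4883 bp for those with a lower one and 4280 bp for the rest. The median number of exons was 6, 13 and 9, and the median GC content of exons was 52.4%, 48.7% and 49.6%. In 5 bins of exonic length, 8.09% of the shortest were called higher and 2.48% lower, and of the longest 1.88% and 5.74%. Among genes with 18 or more exons 6.88% were called lower. Level moved with these properties: in 5 bins of the mean FPKM over the 12 libraries, 7.82% of the lowest bin were called higher and 2.78% lower, and of the highest 2.14% and 7.69%. With exonic length and GC content corrected by a spline in every library, 829 calls were made, 460 with a higher and 369 with a lower ratio, of which 685 were among the earlier 909. By annotated type, 20 of 255 lincRNA genes had a higher ratio and 6 a lower one, and 21 and 7 of 287 antisense genes, against 400 and 424 of 10874 protein-coding genes.

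**Figure D4:**
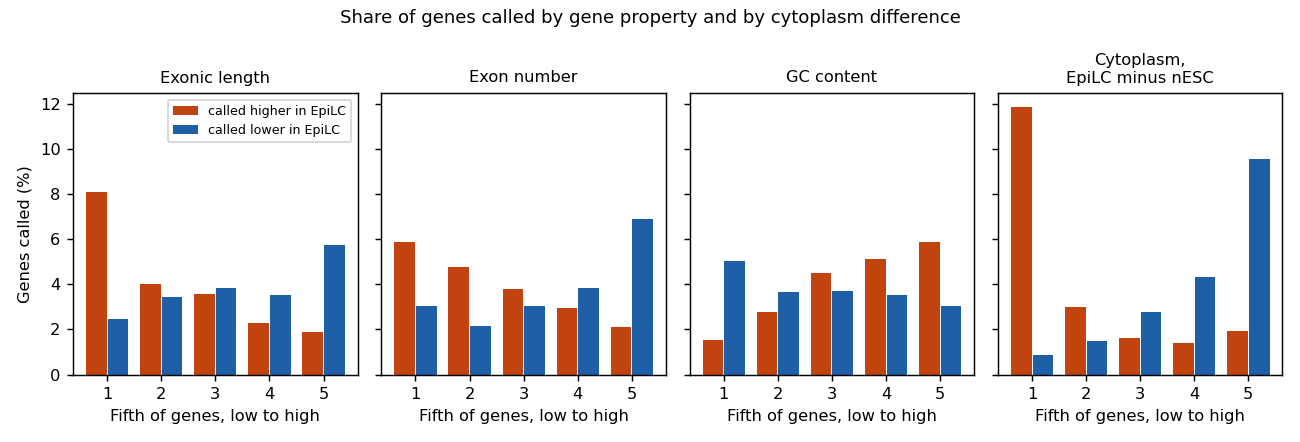
Share of tested genes called higher (red) and lower (blue) in EpiLC, in 5 bins of genes from low to high by exonic length, exon number, GC content and cytoplasm difference. The shares cross in all 4 panels, most widely for the cytoplasm difference (11.9% against 0.854% in the lowest bin).

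Genes of the pluripotency states followed no common direction. Of 29 tested naive pluripotency genes 2 had a higher ratio in EpiLC (6.9%, against 3.96% of all genes) and 2 a lower one (6.9%, against 3.8%). The median interaction was 0.17. Dppa3 and Jam2 were higher at 1.46 and 1.40. Dppa3, a maternal factor that protects methylation imprints, had 7.71 to 9.76 FPKM in nESC nucleoplasm and 0.849 to 2.18 in EpiLC nucleoplasm, with 0.832 to 1.37 and 0.325 to 0.413 in chromatin. Jam2, a junction adhesion molecule, had 175, 179 and 191 FPKM in nESC nucleoplasm and 87.9, 94.4 and 103 in nESC chromatin, and in EpiLC 2.34, 3.56 and 1.40 in nucleoplasm and 4.37, 3.16 and 2.54 in chromatin. Gbx2, a homeobox factor of the naive network, was lower at -1.53, with 6.48, 6.06 and 10.3 FPKM in nESC chromatin, 1.66 to 2.46 in EpiLC chromatin and 1.39 to 1.86 in both nucleoplasm groups. Dppa2 was lower at -1.42.

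None of Nanog, Klf4, Pou5f1 and Sox2, factors central to pluripotency, was called on its ratio. Nanog had 76.4 to 91.8 FPKM in nESC chromatin and 6.49 to 7.95 in EpiLC chromatin, and 239 to 267 and 18.4 to 21.2 in nucleoplasm. Its chromatin minus nucleoplasm difference was -1.53 in nESC and -1.40 in EpiLC, and the interaction of 0.13 (SE 0.15, adjusted p = 0.531) did not pass the test. Klf4 had 60.8 to 68.5 and 1.78 to 2.53 FPKM in the chromatin of nESC and EpiLC, with differences of 0.78 and 1.00 and an adjusted p of 0.35. Pou5f1, which encodes Oct4, had an interaction of 0.28 (SE 0.23, adjusted p = 0.388), and Sox2 one of -0.34 (SE 0.18, adjusted p = 0.169). Differences of the size of these standard errors could not be resolved with this number of libraries.

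Of 28 tested formative epiblast genes 7 had a lower ratio (25%, against 3.8% of all genes) and 2 a higher one (7.14%, against 3.96%), with a median of -0.21. The higher count was 1 without EpiLC chromatin replicate 3 or EpiLC nucleoplasm replicate 3 and 4 with scaling to one sum. The lower ones included the DNA methylation genes Dnmt3b and Dnmt3l. Dnmt3b (chr2:153649450-153687730), a de novo methyltransferase, had 19.1, 19.2 and 24.7 FPKM in nESC chromatin and 15.5, 17.3 and 15.8 in nESC nucleoplasm. In EpiLC it had 472, 525 and 430 FPKM in chromatin and 1073, 1063 and 1103 in nucleoplasm, so both fractions gained and the nucleoplasm gained more (interaction -1.52, SE 0.16, adjusted p = 0.000164). Dnmt3l, the catalytically inactive partner, had 9.49, 9.06 and 14.9 FPKM in nESC chromatin, 6.66, 6.41 and 6.02 in nESC nucleoplasm, 39.0, 43.5 and 30.6 in EpiLC chromatin and 165, 171 and 124 in EpiLC nucleoplasm (interaction -2.71, SE 0.27, adjusted p = 0.000121). Dnmt3a had an interaction of -0.89 (SE 0.13, adjusted p = 0.000873), below the required size.

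Tdgf1, which encodes the Nodal co-receptor Cripto, went the other way. It had 62.2, 70.6 and 82.5 FPKM in nESC chromatin and 137, 127 and 201 in EpiLC chromatin, with 396, 380 and 452 and 343, 348 and 235 in nucleoplasm. The chromatin groups did not overlap, and the nucleoplasm was lower in EpiLC in every library (interaction 1.54, SE 0.29, adjusted p = 0.00258). Otx2, a driver of the formative state, had an interaction of 0.91 (SE 0.29, adjusted p = 0.0357), also below the required size, and was called at 1.23 without nESC chromatin replicate 3. Fgf5 and Pou3f1 had a mean under 1 FPKM in the nESC table and were not tested. Of 18 core pluripotency genes 3 had a lower ratio (16.7%, against 3.8% of all genes), and 1 did with scaling to one sum or without both chromatin libraries numbered 3. Utf1 was among the 3 at -1.31 (SE 0.14, adjusted p = 0.000164), with 8.22 to 9.93 and 40.1 to 45.3 FPKM in chromatin and 9.25 to 10.2 and 119 to 122 in nucleoplasm.

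Of 15 tested MEK and GSK3 response genes 2 had a lower ratio (13.3%, against 3.8% of all genes) and 1 a higher one (6.67%, against 3.96%). Dusp6, a phosphatase that limits ERK, had 8.46 to 9.37 FPKM in nESC chromatin, 5.38 to 5.79 in nESC nucleoplasm, 33.2 to 41.7 in EpiLC chromatin and 60.6 to 66.7 in EpiLC nucleoplasm (interaction -1.38). Etv1, an ETS factor downstream of ERK, had 7.25 to 11.2 and 17.3 to 22.3 FPKM in chromatin and 1.06 to 1.78 and 10.8 to 13.7 in nucleoplasm (interaction -1.67). Both genes were higher in EpiLC in both fractions. Ier3 was the member with a higher ratio, at 1.41, and was not called, at 1.26, without both EpiLC libraries numbered 3.

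Immediate early genes, which are switched on within minutes and make short-lived messages, had a median interaction of 0.48. Of 19 tested members 4 had a higher ratio (21.1%, against 3.96% of all genes) and none a lower one. At any size 6 passed in the upward direction and 1 in the downward, and at an unadjusted p under 0.05 these counts were 9 and 3. Without both EpiLC libraries numbered 3, 2 were called higher. Btg1, an antiproliferative factor that recruits deadenylases, had 24.6, 22.5 and 25.6 FPKM in nESC chromatin and 25.1, 25.6 and 21.5 in EpiLC chromatin. Its nucleoplasm level was 17.0, 18.0 and 18.1 FPKM in nESC and 4.73, 5.24 and 6.49 in EpiLC (interaction 1.63, SE 0.16, adjusted p = 0.000121). Jun, a subunit of AP-1, had 3.85 to 4.52 FPKM in nESC chromatin and 23.2 to 31.2 in EpiLC chromatin, against 3.53 to 4.20 and 8.87 to 12.4 in nucleoplasm (interaction 1.32, SE 0.21, adjusted p = 0.00108). The chromatin of Btg1 overlapped between the states, and that of Jun did not.

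**Figure D5:**
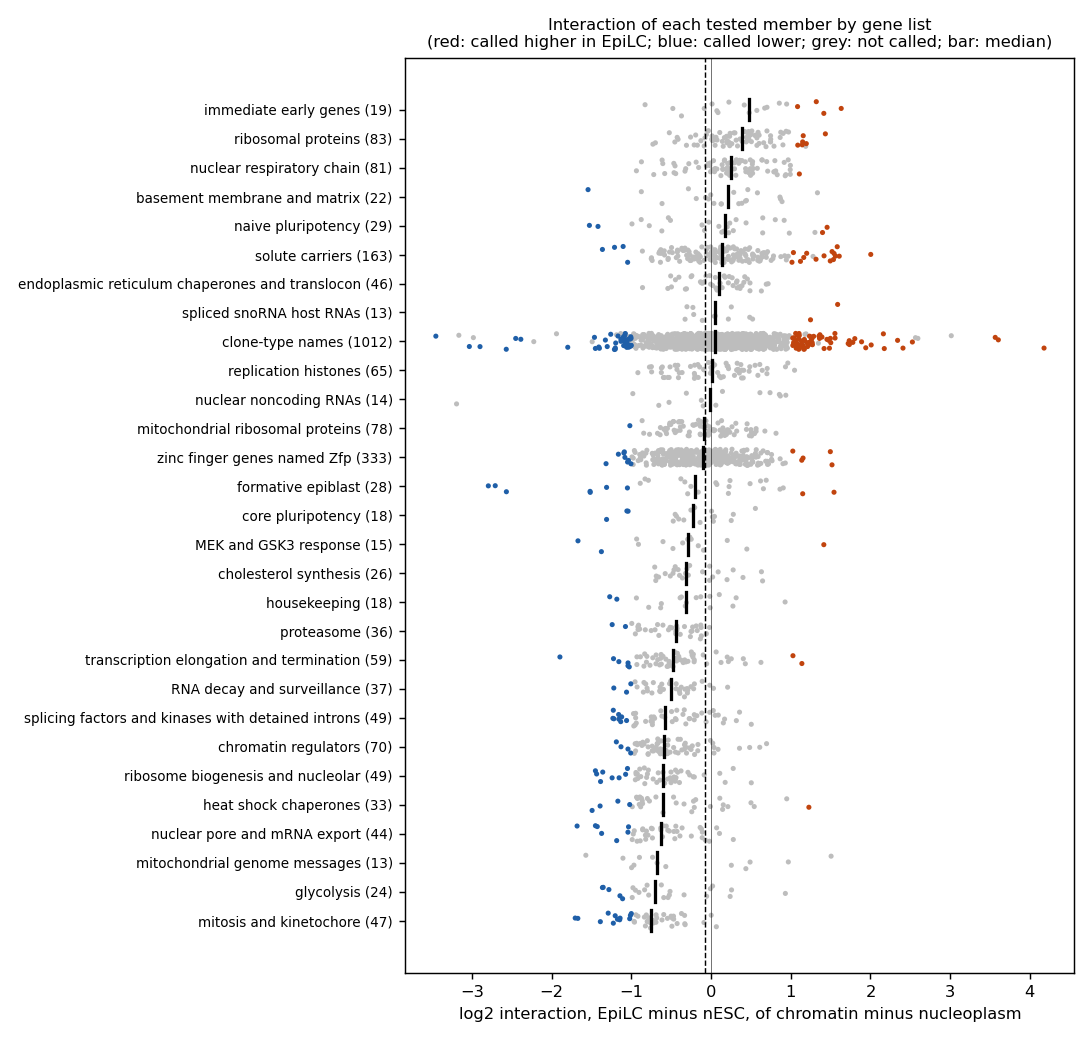
Interaction (log2, EpiLC minus nESC) of each tested member of 29 gene lists with at least 13 tested members, ordered by the list median (black bar), with the number tested in brackets and the median of all genes dashed (-0.07). Medians run from 0.48 for immediate early genes to -0.76 for mitosis genes; the grey point at -3.19 among nuclear noncoding RNAs is Malat1, with 1 library listed at 0.

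Of 47 tested mitosis and kinetochore genes 12 had a lower ratio in EpiLC (25.5%, against 3.8% of all genes) and none a higher one, with a median interaction of -0.76. At any size 31 of the 47 passed in the downward direction (66%, against 17.6% of all genes and 32.1% of the highest level bin). A negative value was found for 45. At an unadjusted p under 0.05 the counts were 40 lower and 0 higher. The median log2 ratio of the list was 0.32 in nESC and -0.49 in EpiLC. Ncapg, a condensin subunit, had 78.3, 94 and 94.2 FPKM in nESC chromatin, 37.2, 36.4 and 39.9 in nESC nucleoplasm, 65, 38 and 41 in EpiLC chromatin and 64.5, 62.9 and 74.1 in EpiLC nucleoplasm (interaction -1.70, SE 0.23, adjusted p = 0.000502). Cenpe, a kinetochore motor, had an interaction of -1.67, with 35.2 to 49.1 and 15.4 to 30.3 FPKM in chromatin and 16.3 to 17.8 and 23.6 to 29.4 in nucleoplasm. Kif20a, a kinesin of cytokinesis, had 33.5 to 36.1 and 22.7 to 29.0 FPKM in chromatin and 40.0 to 41.4 and 83.0 to 83.8 in nucleoplasm (interaction -1.39, SE 0.13, adjusted p = 0.000114). Kif20a overlaps Cdc23 on the opposite strand, which had the higher mean FPKM. In these 3 genes chromatin was lower and nucleoplasm higher in EpiLC, without overlap.

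Of 49 tested genes for ribosome biogenesis and the nucleolus 8 had a lower ratio (16.3%, against 3.8% of all genes) and none a higher one. The median was -0.60. At any size 34 passed in the downward direction (69.4%, against 17.6% of all genes), while an unadjusted p under 0.05 gave 41 lower and 2 higher. Mybbp1a, a nucleolar repressor of ribosomal RNA synthesis, had 169, 132 and 112 FPKM in nESC chromatin and 100, 110 and 86.0 in EpiLC chromatin, with 88.8 to 91.2 and 172 to 190 in nucleoplasm (interaction -1.44, SE 0.19, adjusted p = 0.00045). Utp20, of the small-subunit processome, had 35.5 to 44.6 and 29.2 to 38.7 FPKM in chromatin and 27.4 to 29.3 and 65.6 to 69.8 in nucleoplasm (interaction -1.39). Nol6 and Heatr1 were lower at -1.45 and -1.36. For this list the median state difference was 0.13 in chromatin and 0.90 in nucleoplasm, against 0.00 and 0.11 over all genes.

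Of 44 tested nuclear pore and mRNA export genes 7 had a lower ratio (15.9%, against 3.8% of all genes) and none a higher one. The median was -0.63, and 29 passed downward at any size (65.9%, against 17.6% of all genes). An unadjusted p under 0.05 gave 31 lower and 0 higher. Tpr, the basket protein of the pore, had 126, 142 and 162 FPKM in nESC chromatin, 70.7, 69.7 and 71.1 in nESC nucleoplasm, 124, 71.4 and 64.3 in EpiLC chromatin and 119, 147 and 142 in EpiLC nucleoplasm (interaction -1.68, SE 0.27, adjusted p = 0.0013). Ranbp2, of the cytoplasmic filaments, was lower at -1.45. Thoc1 and Ddx39, which couple transcription to export, were lower at -1.43 and -1.37, and Thoc1 overlaps Usp14 on the opposite strand, which had the higher mean FPKM. Ddx39 had 58.1 to 72.3 and 49.3 to 59.1 FPKM in chromatin, which overlap, and 103 to 108 and 218 to 234 in nucleoplasm, which do not.

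Of 49 tested splicing factors and kinases described as carrying detained introns 8 had a lower ratio (16.3%, against 3.8% of all genes) and none a higher one. The median was -0.58, and an unadjusted p under 0.05 gave 29 lower and 1 higher. Their median log2 ratio was 0.94 in nESC and 0.42 in EpiLC, so the list was chromatin-rich in both states and less so in EpiLC. Srrm1, a splicing coactivator, had 83.7, 85.6 and 88.1 FPKM in nESC chromatin and 85.3, 87.7 and 76.4 in EpiLC chromatin, with 24.4, 26.6 and 30 and 65.7, 66.0 and 56.5 in nucleoplasm (interaction -1.22, SE 0.15, adjusted p = 0.00029). Mat2a, the enzyme of S-adenosylmethionine synthesis whose message is a known case of nuclear detention, had 501, 508 and 382 FPKM in nESC chromatin and 460, 483 and 376 in EpiLC chromatin, with 110, 108 and 114 and 256, 256 and 213 in nucleoplasm (interaction -1.16, SE 0.20, adjusted p = 0.00165). In both genes the chromatin of the states overlapped and the nucleoplasm did not. Son and Srsf3, splicing proteins of nuclear speckles, were both lower at -1.23, and each was at -0.99, short of a call, with the length and GC correction.

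Of 59 tested genes of transcription elongation and termination 6 had a lower ratio (10.2%, against 3.8% of all genes). The 2 with a higher one (3.39%) were near the 3.96% of all genes. Polr2a (chr11:69733997-69758637), the largest subunit of RNA polymerase II, had 26.3, 18.9 and 21.0 FPKM in nESC chromatin and 15.6, 17.6 and 14.7 in EpiLC chromatin. Its nucleoplasm level was 5.51, 4.57 and 5.56 FPKM in nESC and 13.8, 15.9 and 16.6 in EpiLC (interaction -1.90, SE 0.19, adjusted p = 0.000121). Hexim1 and Larp7, both parts of the 7SK particle that holds the elongation kinase inactive, had opposite calls. Hexim1, its inhibitory subunit, had 7.11, 6.94 and 6.32 FPKM in nESC chromatin, 15.2, 17.2 and 17.0 in EpiLC chromatin and 15.1 to 17.3 in both nucleoplasm groups (interaction 1.14, SE 0.13, adjusted p = 0.000211), and was at 0.96, short of a call, with no filter on the mean. Larp7, which binds the 7SK RNA, had 13.7 to 18.7 and 14.4 to 18.3 FPKM in chromatin and 17.2 to 22.0 and 44.3 to 46.5 in nucleoplasm (interaction -1.16, SE 0.19, adjusted p = 0.00137).

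Of 70 tested chromatin regulators 4 had a lower ratio (5.71%, near the 3.8% of all genes) and none a higher one, and 33 passed in the downward direction at any size (47.1%, against 17.6%), with 49 lower and 3 higher at an unadjusted p under 0.05. Chd4, the remodeller of the NuRD complex, had 202 to 220 and 183 to 218 FPKM in chromatin and 127 to 129 and 244 to 301 in nucleoplasm (interaction -1.13, and -0.98, short of a call, with a mean of 5 FPKM required). Without EpiLC chromatin replicate 3 the count of chromatin regulators was 1. Under that omission the counts of lower genes were 9 for mitosis, 8 for ribosome biogenesis, 6 for pore and export, 6 for splicing and 5 for elongation, and the list medians were -0.67, -0.63, -0.57, -0.44 and -0.42. With scaling to one sum the counts of lower genes were 8, 7, 5, 7 and 2, and for chromatin regulators 1. With the length and GC correction they were 9, 8, 6, 4 and 4, and 1 for chromatin regulators. Without both chromatin libraries numbered 3 they were 7, 8, 4, 5 and 5, and 3 for chromatin regulators. The share of all genes called lower was 3.37% without EpiLC chromatin replicate 3 and 2.61% with scaling to one sum. It was 3.16% with the length and GC correction and 4.15% without both chromatin libraries numbered 3. With scaling to one sum, 2 of 59 elongation genes lie near the share of all genes and 1 of 70 chromatin regulators below it. In the highest of the 5 level bins, 7.69% of genes were called lower and 32.1% passed in the downward direction at any size. The part of expression level in these counts and in the shares at any size was not tested.

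Of 24 tested glycolysis genes 5 had a lower ratio (20.8%, against 3.8% of all genes), with a median of -0.70, and 8 did with the length and GC correction. Ldha (chr7:46841475-46855627), lactate dehydrogenase A, had 101, 89.1 and 97.9 FPKM in nESC chromatin and 183, 192 and 209 in EpiLC chromatin, against 164, 161 and 165 and 828, 811 and 831 in nucleoplasm (interaction -1.28, SE 0.14, adjusted p = 0.000164). Pfkl, the liver form of phosphofructokinase, had 33.2 to 39.5 and 54.2 to 56.0 FPKM in chromatin and 41.2 to 42.5 and 157 to 176 in nucleoplasm (interaction -1.35). Of 33 heat shock chaperones 4 had a lower ratio (12.1%, against 3.8% of all genes) and 1 a higher one (3.03%, near the 3.96% of all genes). Hsph1 and the chaperonin subunits Cct6a and Cct5 were lower at -1.49, -1.39 and -1.17, and the small heat shock protein Hspb8 was higher at 1.23. Of 36 proteasome genes 2 had a lower ratio (5.56%, near the 3.8% of all genes), 4 with the length and GC correction and 1 without both EpiLC libraries numbered 3, and all 36 had a negative interaction, against 55.4% of all genes. Psmd6, of the regulatory particle, had 78.0, 83.7 and 78.4 FPKM in nESC chromatin and 39.8, 43.1 and 46.9 in EpiLC chromatin, with 94.7 to 103 and 124 to 131 in nucleoplasm (interaction -1.24, SE 0.14, adjusted p = 0.000164).

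Of 18 housekeeping genes 2 had a lower ratio (11.1%, against 3.8% of all genes). They were Actb at -1.18 (SE 0.25, adjusted p = 0.00471) and Actg1 at -1.27 (SE 0.33, adjusted p = 0.0131), the beta and gamma actins. Actb had 368 to 607 and 516 to 646 FPKM in chromatin and 903 to 970 and 2471 to 2845 in nucleoplasm. Gapdh had an interaction of -0.62 (SE 0.18, adjusted p = 0.0248), which is short of the required size.

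Solute carriers, the membrane transporters of small molecules, had 15 of 163 tested members with a higher ratio (9.2%, against 3.96% of all genes) and 4 with a lower one (2.45%, against 3.8%), and a median of 0.13. With scaling to one sum 1 had a lower ratio, and 7 without both EpiLC libraries numbered 3. Slc26a11, an anion transporter of the lysosome and plasma membrane, had 4.14, 3.71 and 4.15 FPKM in nESC chromatin, 3.18, 5.76 and 4.56 in EpiLC chromatin, 8.89, 9.49 and 9.22 in nESC nucleoplasm and 2.50, 1.79 and 2.31 in EpiLC nucleoplasm (interaction 2.00, SE 0.25, adjusted p = 0.000299). Slc39a11, a zinc transporter, was higher at 1.61, with 28.4 to 41.1 and 6.87 to 9.92 FPKM in chromatin and 73.5 to 79.4 and 4.22 to 6.96 in nucleoplasm. Slc12a8 and Slc44a3 were higher at 1.58 and 1.56. Without EpiLC chromatin replicate 3, 17 members had a higher ratio and 5 a lower one.

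For ribosomal protein genes the counts and the median rested largely on 1 library. Of 83 tested genes 6 had a higher ratio (7.23%, against 3.96% of all genes) and none a lower one (14 and 4 at an unadjusted p under 0.05), with a median of 0.39. Rps27 had 2279.7, 1852 and 1710.2 FPKM in nESC chromatin and 2512, 2529 and 5581 in EpiLC chromatin, where only replicate 3 lay far above nESC. Without that library the median of the list was 0.03, and Rps27, at 1.04, was the 1 gene called. With all libraries its interaction was 1.43 (SE 0.41, adjusted p = 0.0219), and it was not called without nESC nucleoplasm replicate 1 (1.37) or without EpiLC nucleoplasm replicate 3 (1.35). The list had 2 higher genes without EpiLC nucleoplasm replicate 3 or with the length and GC correction and none without both EpiLC libraries numbered 3, where Rps27 was at 0.95. None of the 13 messages of the mitochondrial genome was called with all libraries, where 1 had an unadjusted p under 0.05, and 6 were called lower without EpiLC chromatin replicate 3, in which they summed to 27303 FPKM against 5144 and 7888 in the other EpiLC chromatin libraries. EpiLC nucleoplasm replicate 3, with its higher sum of these messages, is in that fit. Without both EpiLC libraries numbered 3, 4 were called lower, and without EpiLC nucleoplasm replicate 3 alone none was, with list medians of -1.20, -0.93 and -0.41 in the order of these 3 fits. Genes for nuclear-encoded respiratory chain subunits had a median of 0.25 with all libraries and -0.07 without that library.

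None of 14 tested nuclear noncoding RNAs was called by limma. At any size 5 passed upward and 1 downward, and 8 had an unadjusted p under 0.05. The median log2 ratio of the 14 was 2.18 in nESC and 2.13 in EpiLC. With the length and GC correction 3 were called higher, and the median interaction went from -0.02 to 0.30. With scaling to one sum or without both EpiLC libraries numbered 3, 1 was called higher, without EpiLC nucleoplasm replicate 3 or with no centring 1 lower, and without both chromatin libraries numbered 3, 1 in each direction. Neat1, the scaffold of paraspeckles, had 128, 95.3 and 92.5 FPKM in nESC chromatin and 14.7, 16.4 and 16.9 in EpiLC chromatin, with 23.5 to 26.5 and 3.15 to 4.27 in nucleoplasm. Its log2 ratio was 2.02 and 2.08, and the interaction was 0.06 (SE 0.20, adjusted p = 0.846). Meg3, an imprinted noncoding RNA, had 329 to 385 and 587 to 700 FPKM in chromatin at 157 to 187 in nucleoplasm, and its interaction of 0.94 (SE 0.16, adjusted p = 0.00153) was just short of the required size, which it reached at 1.01 with scaling to one sum and at 1.22 with the length and GC correction. Malat1 was listed at 0 in nESC nucleoplasm replicate 3 and at 3589.5 and 3809.8 FPKM in the other 2, so its interaction of -3.19 (SE 3.47, adjusted p = 0.52) rests on that zero. Of 13 spliced host RNAs of small nucleolar RNAs 2 had a higher ratio (15.4%, against 3.96% of all genes) and none a lower one. Epb41l4aos had 31.7, 31.0 and 38.5 FPKM in nESC chromatin and 49.1, 67.5 and 75.7 in EpiLC chromatin, with 136 to 165 and 93.6 to 97.5 in nucleoplasm (interaction 1.59, SE 0.22, adjusted p = 0.00056). Snhg8 was higher at 1.25, and at 0.87 and 0.99, short of a call, without both chromatin and without both EpiLC libraries numbered 3.

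Of 333 zinc finger genes named Zfp 5 had a higher ratio (1.5%, against 3.96% of all genes) and 8 a lower one (2.4%, against 3.8%). The lower count was 4 without EpiLC chromatin replicate 3, 5 with scaling to one sum and 2 with the length and GC correction. Zfp296, a regulator of heterochromatin in stem cells, was higher at 1.52, with 5.52 to 8.08 and 9.69 to 11.7 FPKM in chromatin and 15.9 to 17.5 and 8.53 to 9.15 in nucleoplasm. None was called among 65 replication histones, 46 chaperones and translocon genes of the endoplasmic reticulum or 26 cholesterol synthesis genes, for which limma gave 13, 2 and 6 genes at an adjusted p under 0.05 of any size and 21, 8 and 10 at an unadjusted p under 0.05. For replication histones 4 were called lower with the length and GC correction, where the list median was -0.24, 1 lower without EpiLC chromatin replicate 3, and 2 higher with scaling to one sum or without EpiLC nucleoplasm replicate 3. The RNA decay list had 3 lower genes of 37 (8.11%, against 3.8% of all genes and 7.69% of the highest level bin). It had 2 without EpiLC chromatin replicate 3 and 1 with scaling to one sum. Edc4, a scaffold of decapping, was at -1.22. The mitochondrial ribosomal protein list had 1 lower gene of 78 (1.28%) and the matrix list 1 of 22 (4.55%), against 3.8% of all genes, and without EpiLC chromatin replicate 3 they had 0 and 2. Of 1012 genes with clone-type names 68 had a higher ratio (6.72%, against 3.96% of all genes and 7.82% of the lowest level bin). Another 42 had a lower one (4.15%, near the 3.8% of all genes).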

How the data were processed

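Chromatin and nucleoplasm RNA of nESC and EpiLC was depleted of ribosomal RNA and made into strand-specific libraries, per the labels' protocols. The authors deposited gene-level FPKM. The submitters' processing notes name TopHat2, Cuffnorm and the build mm10. Their versions, the annotation, the library normalization and the strand setting were not given in the sources used here. Each state has its own table. The fit takes only differences within a table, and state differences within a fraction rest on centring each library on its median.

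Symbols came from Ensembl IDs (29586 of 29759 matched), and positions, exons and GC content from GENCODE vM21 on GRCm38. On log2(FPKM + 0.5) of 12 libraries the contrast was fitted by limma (version 3.58.1, R version 4.3.3) with a trended prior and two-sided tests, with p-values adjusted over 11704 genes and 8 residual degrees of freedom. The script was tested on simulated data. Depth was read from the spacing of low values in genes of 3000 to 10000 bp of exonic length, since counts are not in these tables, and small values rest on few fragments.

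The comparison, the 34 gene lists and the genes named were chosen with earlier results of these data known. Named genes are the 12 largest called interactions in each direction without overlap and with a group mean of at least 5 FPKM (clone-type and small RNA names and genes with a group at 0 not considered), as many as 4 genes per list and a fixed set. The text prints part of these. Cytoplasm and total RNA libraries served as side readouts and also entered the filter on the mean of each table. Alternatives were other pseudocounts, filters, scalings, models and blocks, isolated zeros as missing, a length and GC correction and each library left out. Leaving out both chromatin or both EpiLC libraries numbered 3, and the lists under other settings, were added after seeing the data.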

Additional observations from a re-analysis of the deposited data

Results flagged for a closer look

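All 909 called genes differ between the states by the test of the interaction itself. In 6 of them the fractions also lay at least 2-fold apart in opposite directions in the 2 states, on the centred log2(FPKM + 0.5) scale. They were singled out after their values were seen. Pim2 (interaction -2.79) went from chromatin-rich to nucleoplasm-rich, and its FPKM values are given above. The other 5 went from nucleoplasm-rich to chromatin-rich. Kdelr3, a receptor that returns proteins to the endoplasmic reticulum, had 10.3, 8.33 and 7.47 FPKM in nESC chromatin, 20.5, 20.2 and 19.6 in nESC nucleoplasm, 7.15, 7.73 and 7.74 in EpiLC chromatin and 2.87, 3.55 and 1.64 in EpiLC nucleoplasm (interaction 2.59, SE 0.28). Its chromatin groups overlapped between the states, and its nucleoplasm groups did not. Tmem116 (interaction 2.18, SE 0.26) had 2.78 to 5.26 FPKM in nESC chromatin, 8.32 to 8.83 in nESC nucleoplasm, 2.53 to 3.27 in EpiLC chromatin and 0.923 to 1.29 in EpiLC nucleoplasm, and overlaps Erp29 on the opposite strand, which had the higher mean FPKM. Tmem151a (interaction 2.40, SE 0.32) had 0.138 to 0.806 and 2.11 to 2.62 FPKM in the chromatin of nESC and EpiLC and 1.44 to 1.76 and 0.511 to 0.728 in nucleoplasm. The lincRNA 2410080I02Rik (interaction 2.41, SE 0.37) had 1.5 to 3.47 and 6.68 to 7.29 FPKM in chromatin and 4.71 to 7.7 and 2.22 to 4.09 in nucleoplasm. The lincRNA 1810063I02Rik (interaction 4.18, SE 0.90) had 6.32 to 10.8 FPKM in nESC nucleoplasm and is listed at 0 in all 3 EpiLC nucleoplasm libraries and in EpiLC chromatin replicate 1, so its value depends on the pseudocount.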

How the results depend on the processing

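The count of calls ran from 804 to 1180 over the 12 fits that left out 1 library each (399 to 570 higher, 394 to 610 lower), and 488 of the 909 genes, 261 higher and 227 lower, kept their call in all 12. No called gene that was tested again changed direction in any of the 27 alternatives. With no filter on the mean 1748 genes were called, 1228 of them lower, and 486, of which 151 lower, when a mean of 5 FPKM was required in each table. These fits test 25457 and 8231 genes. The remaining alternatives moved none of the 3 counts by over 1.5 times, and with all libraries in they gave from 735 calls at a pseudocount of 1 to 1101 at 0.1. A replicate block of state and number gave 886 calls and a replicate block of number across states 865, of which 871 and 858 were among the 909. The labels do not say that equal numbers pair libraries. Deviations of same-numbered chromatin and nucleoplasm libraries from their group means correlated across genes at 0.061, -0.048 and 0.11 in nESC and -0.13, -0.20 and -0.22 in EpiLC, and not every library correlated best with its own number. Without both chromatin libraries numbered 3 there were 908 calls, of which 648 were among the 909, and without both EpiLC libraries numbered 3 there were 805, of which 652 were. Values near 0 changed sign for genes that were not called: Neat1 was -0.049 at a pseudocount of 1, -0.12 with no filter, -0.081 without both chromatin libraries numbered 3 and -0.026 to 0.21 with single libraries left out. Nanog was -0.046 with no filter, Pou5f1 -0.041 without both chromatin libraries numbered 3, and Kcnq1ot1 0.32 with the length and GC correction. Malat1 was 1.09 with its isolated zero as missing and -5.36 to 1.09 with single libraries left out. The cause was not tested beyond the construction of each alternative. Depth limits chromatin most, where the fewest fragments stand behind an FPKM.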
